A study of Mus musculus with 4 samples.

Results

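The 9 genes described here encode transcription factors that pattern the dorsal telencephalon, the part of the embryonic forebrain that becomes the cortex. They are the homeobox genes Emx1, Emx2 and Lhx2, the DM-domain genes Dmrt3 and Dmrta2, the paired-box gene Pax6, and the nuclear receptor genes Nr2f1 (COUP-TFI), Nr2f2 (COUP-TFII) and Nr2e1 (Tlx). They were chosen by name, and all 9 were found among the 40630 genes of the deposited table and passed the filter on low values. RNA-seq of neocortex from C57BL/6 mouse embryos at E13.5 gave 4 libraries. Of these, 2 were labelled Upf2fl/fl Emx1-Cre+ (conditional knockout, cKO; here cKO-labelled 4 and 5, by replicate number), and 2 were littermate controls labelled Upf2fl/+ Emx1-Cre- (control 8 and 9). Every library thus carries at least 1 floxed Upf2 allele, and the groups differ both in Cre and in whether 1 or 2 alleles are floxed. Upf2 encodes an adaptor of nonsense-mediated mRNA decay, which degrades transcripts with premature stop codons. Emx1-Cre takes its name from the member Emx1 and is active in the dorsal telencephalic lineage. The labels say neither whether Cre sits in the Emx1 locus nor whether each library is 1 embryo, so the spread behind a p-value may be technical.

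In mouse, these factors form graded patterns across the sheet of cortical progenitors, the radial glia of the ventricular zone. Emx2, Dmrt3 and Dmrta2 are strongest at the medial and caudal side, next to the cortical hem, a signalling centre that secretes Wnt and BMP proteins. Pax6 is strongest rostrally and laterally, and Nr2f1 caudally and laterally. Lhx2 keeps cortical progenitors from taking a hem fate, and Nr2e1 keeps progenitors dividing. Several of them also hold the border between the dorsal telencephalon and the ventral ganglionic eminences, the source of interneurons.

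Upf2 itself was not lower under the cKO label, with 27.8 and 42.2 TPM (transcript abundance per gene, scaled by length and depth) in cKO-labelled cortex and 23.7 and 41.3 TPM in control cortex. The floxed exons are not named in the labels, so this whole-gene value is no check of the deletion. Recovered reads numbered 33537843 and 36453920 in the cKO-labelled libraries, and 41680052 and 38274835 in the control ones, of which a member held between 351 and 21171. Replicates differed by base composition in both groups. Over 15100 genes, the log2 difference of cKO-labelled 4 minus 5 went with GC content at a Spearman rho of 0.32, that of control 9 minus control 8 at -0.76, and the fold change between groups at 0.54, as descriptions across genes, which are not independent.

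Sequence around the start is shown for the 3 members that fell and for Dmrta2, which shares its upstream region with a divergent lncRNA that fell (all described below). The sequences are from RefSeq, build GRCm38.p6, on the plus strand. Runs of Lhx2, Dmrt3 and Dmrta2 are the longest stretch of each 300-base window around the RefSeq start without a GENCODE M21 exon. Capitals mark GC boxes (GGGCGG or its reverse complement) in Lhx2 and Emx2. In Dmrt3 and Dmrta2 they mark CCAAT boxes (CCAAT or its reverse complement). The Lhx2 run is the 250 bases at chr2:38339031-38339280. The Dmrt3 run is the 182 bases at chr19:25610355-25610536, which lie upstream of the RefSeq start but downstream of the GENCODE start, in non-exonic sequence of the GENCODE gene. The Dmrta2 run is the 239 bases at chr4:109977814-109978052, the whole gap between the GENCODE starts of Dmrta2os and Dmrta2. For Emx2, whose window is exonic in GENCODE, 30 bases around a pair of overlapping GC boxes are shown, at chr19:59458508-59458537.
Lhx2: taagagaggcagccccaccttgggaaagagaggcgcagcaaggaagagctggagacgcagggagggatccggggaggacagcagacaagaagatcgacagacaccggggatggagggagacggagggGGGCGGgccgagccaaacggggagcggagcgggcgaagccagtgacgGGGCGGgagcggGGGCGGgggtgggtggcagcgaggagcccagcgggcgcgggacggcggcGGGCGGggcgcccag
Dmrt3: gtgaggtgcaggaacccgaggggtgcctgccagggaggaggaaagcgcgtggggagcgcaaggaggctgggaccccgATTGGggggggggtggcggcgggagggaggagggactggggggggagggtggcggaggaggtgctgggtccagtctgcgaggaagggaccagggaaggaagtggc
Dmrta2: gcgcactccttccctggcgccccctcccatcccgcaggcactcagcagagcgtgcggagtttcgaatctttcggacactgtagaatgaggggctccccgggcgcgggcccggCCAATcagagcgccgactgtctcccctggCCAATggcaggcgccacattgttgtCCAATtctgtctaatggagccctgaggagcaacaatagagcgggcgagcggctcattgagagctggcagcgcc
Emx2: gtcggcggccGGGCGGGCGGctggaggcac

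Motif matches were counted in the whole windows on both strands, and a match is a description, not a binding site. GC boxes occurred in 4 of the 9 members' windows (Emx1, Emx2, Lhx2 and Nr2f1), against 35.7% of all 32851 windows in the table. CCAAT boxes occurred in 5 of the 9 (Dmrt3, Dmrta2, Emx2, Nr2f2 and Pax6), against 37.4% of all windows. The homeodomain core TAATTA was found in Emx2 alone among the 9 (5.29% of all windows), and the TCF/LEF core CTTTGA in Nr2f2 alone (16.0% of all windows). None of the 9 held the nuclear receptor half-site AGGTCA (16.3% of all windows), which says only that these letters are not in these windows. No motif of these 5 was present in the windows of all 3 members that fell.

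Of the 9 members, Emx2, Dmrt3 and Lhx2 fell, none rose and 6 did not pass the test. The 3 stood at 37.1%, 35.6% and 47.1% of their control means. Over all 15107 genes tested, limma called 8.14% in either direction, 5.24% lower and 2.9% higher, at an adjusted p under 0.05. The members' median log2 fold change was -0.66, against -0.16 for all tested genes. A fold change is the mean log2(TPM + 1) of cKO-labelled cortex minus that of control cortex. Each adjusted p is from limma, Benjamini-Hochberg adjusted over all tested genes. Each SE is that of the trend pooled over genes, not of the gene's own replicates. In bulk tissue, fewer cells that express a gene and less RNA per cell cannot be told apart.

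**Figure D1:**
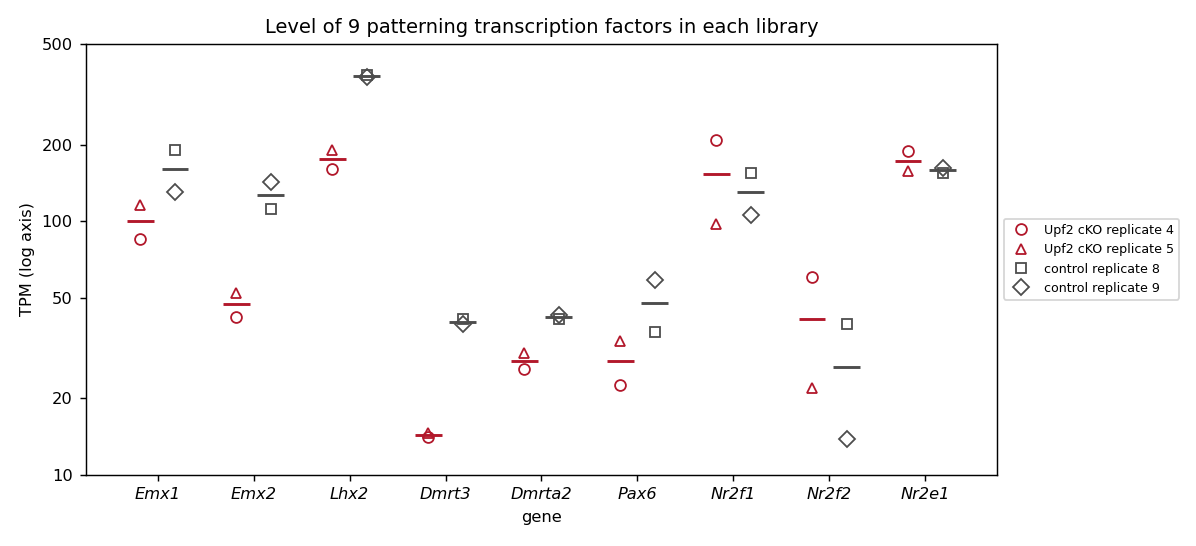
Level in TPM (log axis) of each of the 9 members in each library, with cKO-labelled libraries in red to the left of controls in grey and bars at the group means (2 libraries each). Lhx2, Emx2, Dmrt3, Emx1, Pax6 and Dmrta2 lie below controls in both cKO-labelled libraries, as do 34.1% of all tested genes. Nr2f2 differed most between replicates in both groups, followed by Nr2f1 in cKO-labelled cortex and by Pax6 in control cortex.

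Emx2, needed for the hippocampus and for caudal and medial cortex, had 42.0 and 52.3 TPM in cKO-labelled cortex, against 112 and 143 TPM in control cortex. The cKO-labelled values both lay below the controls, by more than either pair of replicates differed. The log2 fold change was -1.41 ± 0.35 (SE, 2 libraries a group, limma adjusted p = 0.00158), with a 95% interval of -2.09 to -0.73. Emx2 lies on chromosome 19 at 59458372 to 59465357 (GRCm38, plus strand; ENSMUSG00000043969.4). Its values rested on 1285 and 1733 reads in cKO-labelled cortex and 4290 and 4744 reads in control cortex.

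Dmrt3 encodes a DM-domain factor of medial cortical progenitors. It had 14.1 and 14.6 TPM in cKO-labelled cortex, against 41.0 and 39.3 TPM in control cortex. The cKO-labelled pair was 0.05 apart on the log2 scale and the control pair 0.06, and the groups did not overlap. Its log2 fold change was -1.43 ± 0.37 (SE, 2 libraries a group, limma adjusted p = 0.00328), with an interval of -2.15 to -0.70. Dmrt3 lies on the same chromosome 19, at 25610301 to 25623921 (plus strand; ENSMUSG00000042372.5). It was counted from 351 and 393 reads in cKO-labelled cortex and 1281 and 1066 reads in control cortex.

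Lhx2, the LIM homeobox selector of cortical fate, was the most abundant member in control cortex. It had 161 and 190 TPM in cKO-labelled cortex, against 377 and 369 TPM in control cortex. The groups did not overlap, and the controls were 0.03 apart on the log2 scale. The log2 fold change was -1.09 ± 0.35 (SE, 2 libraries a group, limma adjusted p = 0.0297), with an interval of -1.77 to -0.40. Lhx2 lies on chromosome 2 at 38339281 to 38369733 (plus strand; ENSMUSG00000000247.11).

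These 3 calls needed both cKO-labelled libraries. Leaving out cKO-labelled 4 gave fold changes of -1.26 for Emx2, -1.40 for Dmrt3 and -0.97 for Lhx2, each with an adjusted p of 1.00. Leaving out cKO-labelled 5 gave -1.57, -1.45 and -1.21 (adjusted p = 0.471, 0.599 and 0.771). Both of those fits take the spread from the 2 controls only. Leaving out a control gave -1.58, -1.40 and -1.07 without control 8 and -1.24, -1.46 and -1.10 without control 9. Those fits take the spread from the cKO-labelled pair only. Of 14 alternatives, Emx2 and Dmrt3 passed in 11 and Lhx2 in 10, with the adjusted p between 0.00123 and 1.00 for Emx2, 0.00227 and 1.00 for Dmrt3, and 0.00219 and 1.00 for Lhx2. With no filter on low TPM the calls also ended (adjusted p = 0.0904, 0.0834 and 0.162), and Lhx2 did not pass after median-of-ratios scaling (-0.92, adjusted p = 0.127).

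**Figure D2:**
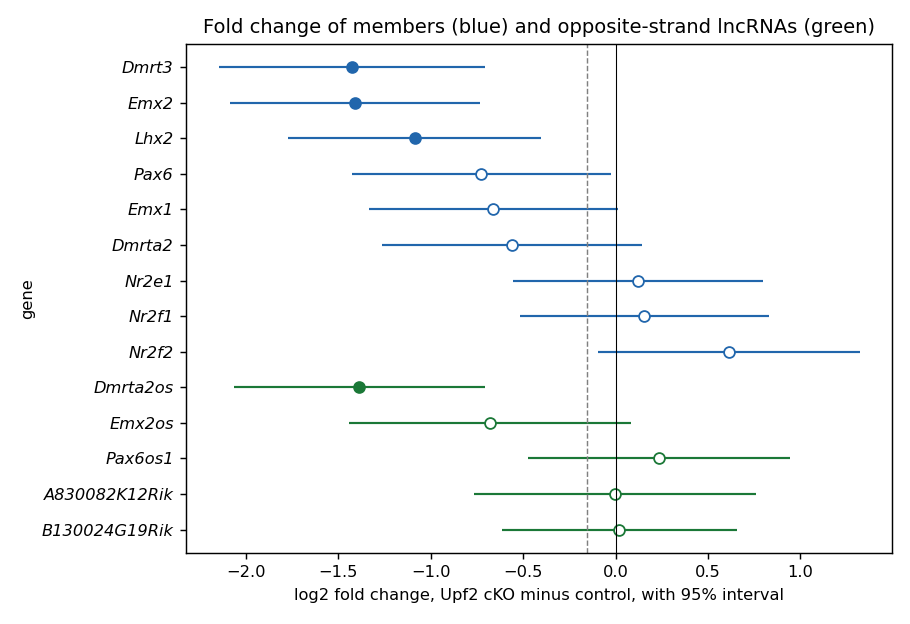
Log2 fold change, cKO-labelled minus control, with its 95% interval, for the 9 members (blue) and lncRNA genes on the opposite strand (green). Filled circles passed at an adjusted p under 0.05, and the dashed line is the median of all tested genes at -0.16.

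Emx1, Pax6 and Dmrta2 did not pass the test, although their groups did not overlap. Groups were apart for 6 of the 9 members, all 6 lower in cKO-labelled cortex, against 57.6% of all tested genes, 34.1% lower and 23.5% higher. Emx1, a homeobox gene active throughout the cortical sheet (chromosome 6, 85187438 to 85204462, plus strand), had 84.9 and 116 TPM in cKO-labelled cortex, against 191 and 130 TPM in control cortex. The nearest values of the groups, 116 and 130 TPM, were closer than the replicates of either group. Emx1 had a log2 fold change of -0.66 ± 0.34 (SE, adjusted p = 0.23). The controls were 0.55 apart on the log2 scale, a gap that the pooled SE does not measure.

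Pax6 drives neurogenesis and rostrolateral identity (chromosome 2, 105668900 to 105697364, plus strand). It had 22.5 and 33.8 TPM in cKO-labelled cortex, against 36.6 and 58.7 TPM in control cortex. The higher cKO-labelled value lay close to the lower control. Pax6 had a log2 fold change of -0.73 ± 0.36 (SE, adjusted p = 0.202), while the controls were 0.67 apart. It stood at -0.44 without cKO-labelled 4, at -0.39 without control 9 and at -1.06 without control 8.

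Dmrta2 (Dmrt5), a DM-domain gene of the hem and medial cortex like Dmrt3 (chromosome 4, 109978053 to 109983687, plus strand), had 26.2 and 30.1 TPM in cKO-labelled cortex, against 41.0 and 42.7 TPM in control cortex. Both replicate pairs were closer to each other than to the other group. The log2 fold change was -0.56 ± 0.36 (SE, adjusted p = 0.336), and its interval of -1.26 to 0.14 holds both 0 and the fold change of Lhx2.

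Emx1 and Dmrta2 are GC-rich, and their calls moved with the GC trend. Their GC contents of 66.8% and 65.4% exceeded those of 99.8% and 99.7% of tested genes, whose median was 49.8%. With the GC trend removed both passed, Emx1 at -1.27 (adjusted p = 0.0143) and Dmrta2 at -1.14 (adjusted p = 0.0282), beside Emx2 at -1.44, Dmrt3 at -1.85 and Lhx2 at -1.47. Over all 14 alternatives the highest adjusted p was 1.00 for both. Emx1 stood at -0.93 without control 9 and at -0.39 without control 8. Dmrta2 stood at -0.59 without control 8.

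The nuclear receptor genes did not pass the test. Nr2f1, which sets caudal and sensory area identity (chromosome 13, 78188973 to 78199757, minus strand), had 209 and 97.6 TPM in cKO-labelled cortex, against 155 and 106 TPM in control cortex. Nr2f2, known from the caudal ganglionic eminence and caudal cortex (chromosome 7, 70351944 to 70366735, minus strand), had 60.3 and 22.0 TPM in cKO-labelled cortex, against 39.5 and 13.9 TPM in control cortex. Both genes were higher in cKO-labelled 4 than in 5 and higher in control 8 than in 9, and the groups overlapped. Nr2f2 differed by 1.41 on the log2 scale within the cKO-labelled pair and by 1.45 within the control pair, and Nr2f1 by 1.09 and 0.55. The fold changes between groups were smaller, 0.16 ± 0.34 for Nr2f1 and 0.61 ± 0.36 for Nr2f2 (SE, adjusted p = 0.805 and 0.293).

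The sign of both receptor genes rested on single libraries. Nr2f1 turned to -0.39 and Nr2f2 to -0.09 once cKO-labelled 4 was left out, and they turned to -0.12 and -0.11 without control 9. Nr2f2 stood at 1.34 without control 8. After removal of the GC trend Nr2f1 stood at -0.29.

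Nr2e1, the orphan receptor gene of dividing progenitors (chromosome 10, 42561963 to 42583632, minus strand), had the smallest absolute fold change of the 9. It had 189 and 158 TPM in cKO-labelled cortex, against 155 and 163 TPM in control cortex. The groups overlapped. The log2 fold change was 0.12 ± 0.35 (SE, adjusted p = 0.856), with an interval of -0.56 to 0.80, and it turned to -0.010 without cKO-labelled 4.

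**Figure D3:**
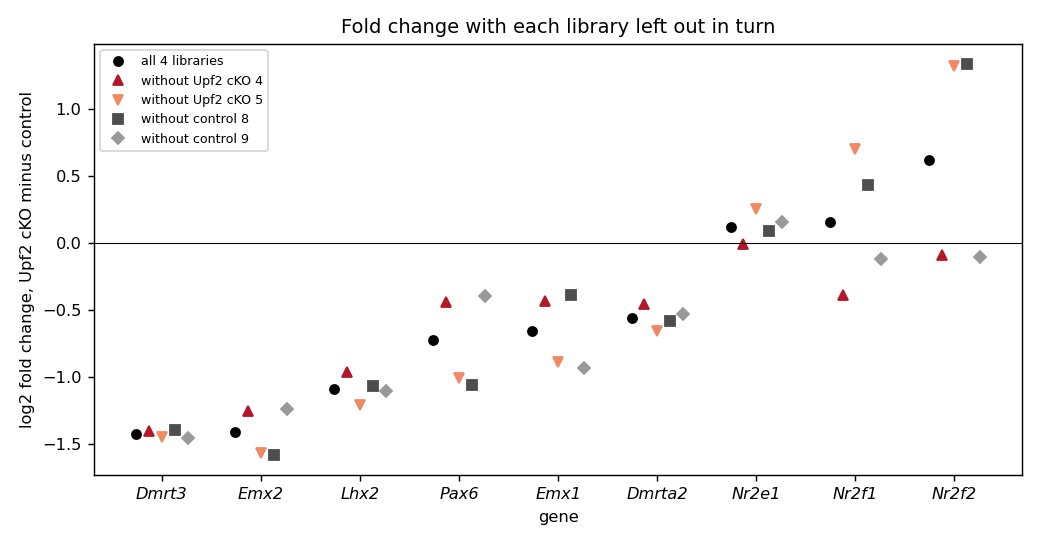
Log2 fold change, cKO-labelled minus control, of each member with all 4 libraries (black) and with each library left out in turn. Dmrt3 stayed between -1.46 and -1.40, while Nr2f1 and Nr2f2 crossed 0.

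The order of the members by TPM, a level per transcript length, differed between the groups. In cKO-labelled cortex the means of Lhx2 (176 ± 20.8 TPM, SD, n = 2), Nr2e1 (173 ± 22.2 TPM) and Nr2f1 (153 ± 78.9 TPM) were highest, and their replicates overlapped. Emx1 followed at 101 ± 22.3 TPM, overlapping Nr2f1, then Emx2, Nr2f2, Pax6 and Dmrta2 in a run of overlapping neighbours. Dmrt3 was lowest at 14.3 ± 0.34 TPM, below every other member in both libraries. In control cortex Lhx2 stood above all other members at 373 ± 6.1 TPM. Emx1, Nr2e1, Nr2f1 and Emx2 overlapped between 106 and 191 TPM, and Pax6, Dmrta2, Dmrt3 and Nr2f2 had means of 47.6, 41.9, 40.2 and 26.7 TPM, with the neighbours Dmrta2 and Dmrt3 touching at 41.0 TPM. The 9 members together summed to 809 and 715 TPM in cKO-labelled cortex, against 1149 and 1065 TPM in control cortex.

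The ratio of paralogous members was compared within each library, as a description with no test. The level of Dmrt3 over that of Dmrta2 was 0.54 and 0.48 in cKO-labelled cortex, against 1.00 and 0.92 in control cortex, a difference of -0.91 in mean log2 ratio. The groups lay further apart than the replicates did. Emx1 over Emx2 was 2.02 and 2.22 in cKO-labelled cortex, against 1.70 and 0.91 in control cortex, a log2 difference of 0.76 that stood at 0.31 without control 9 and 1.21 without control 8. With the GC trend removed, the fold changes of Emx1 and Emx2 lay closer together, at -1.27 and -1.44. Those of Dmrt3 and Dmrta2 stayed apart, at -1.85 and -1.14. Nr2f1 over Nr2f2 was 3.47 and 4.43 in cKO-labelled cortex, against 3.93 and 7.63 in control cortex, and the groups overlapped.

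**Figure D4:**
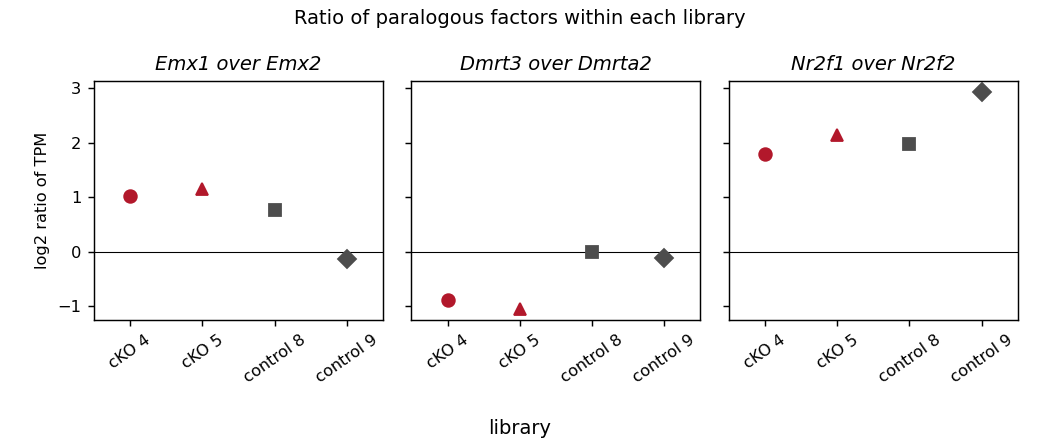
Log2 ratio of TPM between paralogous members within each library, with cKO-labelled libraries (red) to the left of controls (grey). The Dmrt3 over Dmrta2 ratio separates the groups by more than the replicates differ, and the Nr2f1 over Nr2f2 ratio does not.

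Among annotated neighbours on the strand opposite to a member, the lncRNA Dmrta2os fell and the others tested did not pass. Dmrta2os (ENSMUSG00000085256.1, chromosome 4, 109976738 to 109977813, minus strand) starts 240 bases from Dmrta2, across the run shown above. It had 37.6 and 49.1 TPM in cKO-labelled cortex, against 132 and 98.1 TPM in control cortex, with no overlap. The log2 fold change was -1.39 ± 0.35 (SE, adjusted p = 0.00208), while that of Dmrta2 was -0.56, and the difference between the 2 was not tested. Leaving out cKO-labelled 4 (-1.20, adjusted p = 1.00) or 5 (-1.58, adjusted p = 0.465) ended the call, and over 14 alternatives the adjusted p lay between 0.00186 and 1.00.

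Emx2os, whose annotated gene overlaps that of Emx2 by 264 bases, had 6.44 and 9.92 TPM in cKO-labelled cortex, against 11.6 and 15.6 TPM in control cortex (-0.68, adjusted p = 0.276). It ranged from -0.96 to -0.40 with a library left out. Pax6os1 stood at 0.24, the Nr2f1 antisense gene A830082K12Rik at -0.0018 and B130024G19Rik, which overlaps Nr2f2, at 0.02 (adjusted p = 0.711, 0.998 and 0.975). Ostm1, a coding gene that starts 190 bases from Nr2e1, stood at -0.36 (adjusted p = 0.585). It stood at -0.82 without control 8 and turned to 0.11 without control 9. Gm13584, opposite Lhx2, was listed at 0 in every library. Libraries were made with a stranded kit, but how strand was set in counting is not known here, so reads of overlapping genes on opposite strands may not have been told apart.

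The members are expressed in radial glia, whose markers showed no common change. Of 13 tested apical radial glia markers 1 rose, Veph1 at 1.19, and 1 fell, the Notch effector gene Hes1 at -1.10 (median -0.02, limma). Sox2, which encodes a stem cell factor, had 197 and 157 TPM in cKO-labelled cortex, against 149 and 242 TPM in control cortex, and did not pass. The list summed to 3542 and 3448 TPM in cKO-labelled cortex, against 3060 and 4058 TPM in control cortex, so the groups overlapped.

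Each member was also set against the median log2(TPM + 1) of the 14 radial glia markers in its own library. By this relative level Emx2 stood at -1.70 and -1.17 in cKO-labelled cortex and at 0.20 and 0.57 in control cortex. Dmrt3 stood at -3.21 and -2.94 in cKO-labelled cortex and at -1.23 and -1.26 in control cortex, and Lhx2 at 0.22 and 0.68 in cKO-labelled cortex and at 1.94 and 1.93 in control cortex. The 3 genes were thus lower relative to the markers as well, by -1.81, -1.83 and -1.49. The other differences were -1.13 for Pax6, -1.06 for Emx1, -0.96 for Dmrta2, -0.28 for Nr2e1, -0.24 for Nr2f1 and 0.21 for Nr2f2, none of them tested. They are more negative than the plain fold changes because the marker median was 7.12 and 6.90 in cKO-labelled cortex, against 6.62 and 6.60 in control cortex, although the median of the markers' own fold changes was -0.02.

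Markers of tissue next to the cortex also differed between the groups, some lower and some higher in cKO-labelled cortex. All 19 tested of 20 cortical hem and choroid plexus genes fell, led by Ttr, Clic6 and Rspo1 at -9.62, -5.14 and -4.91. The list summed to 38.8 and 51.6 TPM in cKO-labelled cortex, against 2289 and 2497 TPM in control cortex, with Kcne2 and Msx2 each at 0 in 1 cKO-labelled library. Of 14 meningeal genes 12 fell and none rose, led by Lum at -5.70, with sums of 150 and 212 TPM in cKO-labelled cortex, against 700 and 511 TPM in control cortex. Of 22 ganglionic eminence and interneuron genes 20 rose and none fell, led by Nkx2-1 at 3.19 and Sst at 2.84, and the sums were 1388 and 720 TPM in cKO-labelled cortex, against 182 and 327 TPM in control cortex. The count of 20 fell to 2 without cKO-labelled 4, 9 without control 8, 2 with no filter on low TPM and 6 after GC removal, and it was 15 without cKO-labelled 5 or without control 9. The meningeal 12 fell to 8 without cKO-labelled 4 and to 7 with no filter, while hem and choroid plexus genes numbered 14 to 19 over the libraries left out. The part of hem, meningeal or ventral cells in the members' values was not tested.

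Among other cell types, 1 of 10 endothelial and pericyte genes fell (Tek), 2 of 10 microglia and macrophage genes fell (Pf4 and Mrc1), and no gene passed among 9 of Cajal-Retzius cells, 9 of red blood cells and 4 tested of 10 of the diencephalon. The red blood cell genes summed to 17492 and 7722 TPM in cKO-labelled cortex, against 18082 and 9443 TPM in control cortex. They were high in cKO-labelled 4 and control 8, the libraries in which Nr2f1 and Nr2f2 were high. The ganglionic eminence list was higher in cKO-labelled 4 than in 5, but lower in control 8 than in 9, unlike the receptor genes. Whether blood or ventral cells had a part in the receptor values was not tested.

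Of 24 other regulators of cortical patterning 2 rose and 1 fell, and their median log2 fold change was -0.06, against -0.16 for all tested genes. Sall3, a zinc finger gene, had 30.1 and 22.5 TPM in cKO-labelled cortex, against 6.05 and 7.57 TPM in control cortex (1.80, adjusted p = 0.000157). Pbx3, which encodes a homeodomain cofactor, had 49.0 and 34.9 TPM in cKO-labelled cortex, against 7.50 and 21.5 TPM in control cortex (1.62, adjusted p = 0.000544). Its controls were 1.40 apart on the log2 scale, a gap that the pooled SE does not measure. The E protein gene Tcf4 fell, with 34.5 and 42.0 TPM in cKO-labelled cortex, against 66.5 and 101 TPM in control cortex (-1.09, adjusted p = 0.0296). For all 3 the groups did not overlap, and all 3 calls ended when either cKO-labelled library was left out.

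Most of these regulators did not pass. Id4, the most abundant of them, had 186 and 235 TPM in cKO-labelled cortex, against 296 and 466 TPM in control cortex (-0.83, adjusted p = 0.129). Fezf2, a gene of forebrain progenitors and deep-layer neurons, had 54.6 and 69.7 TPM in cKO-labelled cortex, against 118 and 128 TPM in control cortex (-0.98, adjusted p = 0.0531). The groups did not overlap for either gene, with both lower in cKO-labelled cortex.

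Of 18 genes described as acting downstream of members, 6 rose and none fell (median 0.21). Dlx2 and Gsx2, ventral fate genes that dorsal factors hold down in mouse, rose by 2.82 and 2.32, and both are also on the ganglionic eminence list. Gsx2 had 40.9 and 22.3 TPM in cKO-labelled cortex, against 2.35 and 10.6 TPM in control cortex, with no overlap. Dlx2 had 152 and 72.5 TPM in cKO-labelled cortex, against 6.89 and 27.4 TPM in control cortex, also with no overlap. On the log2 scale the controls were 1.85 apart for Dlx2 and 1.79 for Gsx2, gaps that the pooled SE does not measure. The adhesion genes Pcdh8 and Cdh4 rose by 1.55 and 1.13, and the Wnt ligand gene Wnt7a rose by 1.01, passing in 6 of 14 alternatives. Without cKO-labelled 4 none of the 6 passed, and without cKO-labelled 5 Dlx2 and Gsx2 did. Dlx2 and Gsx2 also missed the threshold after GC removal (2.45 and 2.14, adjusted p = 0.0625 and 0.0654) and with no filter on low TPM (adjusted p = 0.123 and 0.172), and over 14 alternatives their highest adjusted p was 0.123 and 0.296.

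The dorsal neurogenic genes on that list and the radial glia gene Fabp7 did not pass. Neurog2, a proneural gene and Pax6 target, had 223 and 281 TPM in cKO-labelled cortex, against 251 and 237 TPM in control cortex (0.04, adjusted p = 0.961). Fabp7, another Pax6 target and the most abundant gene of the list, had 1092 and 1503 TPM in cKO-labelled cortex, against 907 and 1940 TPM in control cortex (-0.05, adjusted p = 0.95). The groups overlapped for both. None of 6 tested genes of the ventral pallium and antihem, the lateral counterpart of the hem, passed (median 0.51), and Sfrp2, a secreted Wnt antagonist gene, had 68.3 and 45.5 TPM in cKO-labelled cortex, against 50.6 and 35.0 TPM in control cortex (0.40, adjusted p = 0.492).

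**Figure D5:**
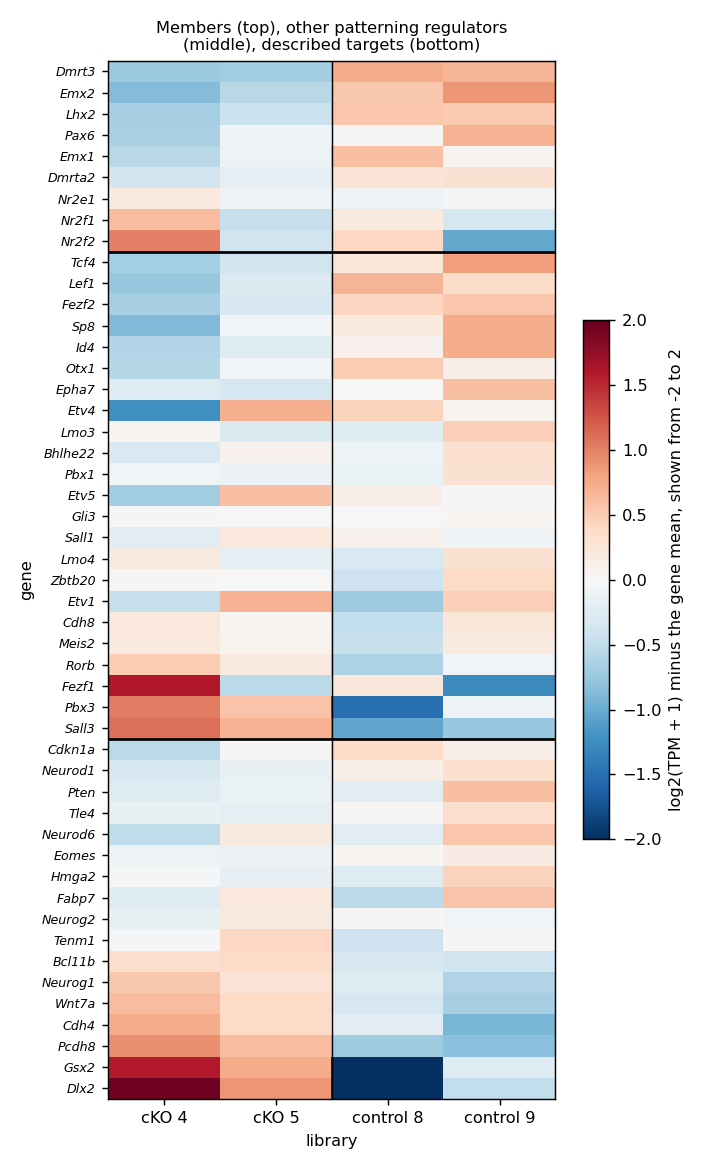
Log2(TPM + 1) minus the gene's mean over the 4 libraries (colour) for the 9 members, other cortical patterning regulators and genes described as downstream of members, with the 2 cKO-labelled libraries left of the 2 controls. Dmrt3, Emx2, Lhx2, Emx1, Pax6 and Dmrta2 are below their means in both cKO-labelled libraries, and Gsx2 and Dlx2 above theirs.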

How the data were processed

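The authors deposited TPM values for 40630 genes, from STAR alignments to mm10 per the submitters' processing notes; the sources used here name neither the counter nor the annotation. Per the labels' protocols, TRIzol RNA went into TruSeq stranded total RNA libraries. TPM multiplied by merged exon length in GENCODE M21 gave whole reads (tolerance 0.05), from which depth was recovered and the annotation inferred. The 15107 genes averaging at least 1 TPM were fitted on log2(TPM + 1) with limma 3.58.1 in R 4.3.3 (trended empirical Bayes, two-sided, Benjamini-Hochberg, called under 0.05), after tests on simulated data. The prior degrees of freedom were infinite, so each SE is that of the pooled trend, not the gene's own. The pseudocount understates changes of low genes. Replicates differed beyond sampling noise (chi-square per gene 33 in the cKO-labelled pair and 211 in the control pair). Each library was treated as 1 sample, though this excess does not tell whether the libraries are separate embryos. Alternatives were other pseudocounts, filters, scalings, moderation and a GC correction, each library left out, and limma-voom on recovered reads.

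The 9 members and all lists were chosen with earlier results of these data known. Genes named were the members, their opposite-strand neighbours, Upf2, the called genes of largest change and the most abundant uncalled gene of a list, and the closest profiles. Sox2, Fezf2, Neurog2, Eomes, Cdh4, Wnt7a and genes listed at 0 were added after their values were seen. Protein sequences were not used here, and 2 genes of the lists are counted but not reported by name.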

Additional observations from a re-analysis of the deposited data

How the results depend on the processing

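Over the 9 members and 14 alternatives, 104 of 126 fold changes kept their direction and side of the threshold, 10 lost the call, 6 gained it and 6 reversed. Nr2f1 reversed after GC removal (-0.29) and ranged from -0.39 to 0.70 over libraries left out, Nr2f2 from -0.11 to 1.34, Nr2e1 from -0.010 to 0.25 and Upf2 from -0.26 to 0.52. Relative to radial glia markers Nr2f1 ranged from -0.68 to 0.19 and Nr2f2 from -0.50 to 0.92. Members called numbered 3 as reported, 0 with no filter on low TPM, 5 after GC removal and 0 to 6 with a library left out (6 without control 8). Genes called overall numbered 1229, against 178 with no filter, 642 at a mean TPM of at least 5 and 176 to 7379 with a library left out (176 without cKO-labelled 4, 269 without cKO-labelled 5, 7379 without control 8). Among 48 tested related genes 9 were called, against 0 with no filter and 0 to 20 with a library left out. Calls were higher in 35.6% as reported, in 52.6% with median-of-ratios scaling, in 57.2% with quantile normalization, in 48.9% at a mean TPM of at least 5 and in 46.4% after GC removal; the 2 scalings put the median of all genes at -0.01 instead of -0.16. The median of the 9 relative levels, taken in each library and so on different genes, differed between groups by -1.34, by -1.15 with intermediate progenitor markers added, and by -1.37 to -1.32 with a library left out. The Nr2f1 over Nr2f2 ratio difference ranged from -0.96 to -0.0032. The cause was not tested. Fits of 3 libraries have fewer samples and take their spread only from the group that keeps 2 libraries. Limma-voom, chosen after seeing the data, called the same 3 members. No paired analysis was possible because the replicate numbers 4 and 5 are not shared with 8 and 9. With 2 libraries a group, the intervals of Emx1 and Dmrta2 hold 0.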

Other observations

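Of 10 tested intermediate progenitor markers 3 rose and none fell (limma, median 0.05). Gadd45g rose by 1.89, with 610 and 867 TPM in cKO-labelled cortex, against 174 and 220 TPM in control cortex, and Mfng and Insm1 rose by 1.17 and 1.02. Eomes, the defining factor of these cells, had 174 and 172 TPM in cKO-labelled cortex, against 192 and 209 TPM in control cortex, and did not pass (adjusted p = 0.734). Of 14 projection neuron markers 1 rose, the microtubule gene Mapt at 1.48, and none fell (median 0.33). When either cKO-labelled library was left out, none of these 4 genes passed.

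The closest profiles to the members over the 4 libraries were found by the root mean square difference of log2(TPM + 1). Each gene was centred on its own mean. The search covered 10455 genes with a mean of at least 5 TPM, with unnamed gene models and repeat entries of a symbol left out. With so few libraries a close match is a description of 4 values. Dmrt3 was closest to Axin2, a Wnt feedback gene (difference 0.07), which had 18.5 and 16.9 TPM in cKO-labelled cortex, against 47.1 and 47.4 TPM in control cortex, and then to Sulf2 (0.09). Emx2 was closest to Atxn7 (0.05) and Emp1 (0.06), Lhx2 to Malat1 (0.03) and Frmd6 (0.05), and Emx1 to Slc9a3r1 and Cercam (0.04 each). Dmrta2 was closest to Adat1 and Fbn1 (0.03 each), Pax6 to Clk1 (0.01) and Phf20l1 (0.02), and Nr2e1 to Arhgap35 and Tcp11l2 (0.02 each). Nr2f1 was closest to the embryonic globin gene Hbb-y (0.15) and to Igfbp5 (0.17), and Nr2f2 to Rasip1 (0.26) and Crabp1 (0.28), the least close matches of the 9.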
